A study of Mus musculus with 60 samples.

Results

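The 9 genes described here, of 19324 named in the annotation of the arrays, were listed as genes of early lymphocyte precursors. Other cells express some of them too, as given below for Lef1 and Cd34. The genes were measured in the spleen leukocytes of 3 mouse strains at 2 ages. They encode the surrogate light chain (Igll1, Vpreb1 and the related Vpreb3), the enzymes that cut and extend antigen receptor gene segments (Rag1, Rag2 and Dntt), and proteins of early lymphoid cells and progenitors (Sox4, Lef1 and Cd34). The genes were listed with earlier results of these data known, so that their share of calls is not an independent test. Every probe set whose annotation on the 430A or 430B array names any of these genes was then taken, without regard to its signal. This gave 21 of 45037 probe sets, of which the 430A array holds 18 and the 430B array 3, and all 21 passed the filter on low signals. One of them, 1422416_s_at, names a second gene, Vpreb2, beside Vpreb1. RNA was measured in 5 female mice of each group: NOD at 4 weeks, NOD at 2 weeks, NON at 4 weeks, NON at 2 weeks, C57BL/6 (C57) at 4 weeks and C57 at 2 weeks. NOD mice spontaneously develop autoimmune diabetes. NON mice, which are closely related to them, and C57 mice, which are more distant, do not. The cells of all 6 groups were neither treated nor cultured, and different mice were taken at each age. Each sample is counted as 1 mouse. The labels number the replicates without saying whether spleens were pooled, so that p-values measure the spread between these samples. The leukocytes were not separated into cell types.

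B cell precursors rearrange their heavy chain genes first. The RAG recombinase, made of RAG1 and RAG2, cuts the gene segments, and terminal transferase, the product of Dntt, adds bases to the open ends before they are joined. A successful heavy chain is then displayed with the surrogate light chain, a pair of proteins encoded by Vpreb1 and Igll1 (lambda5) that stands in for the light chain until it has been rearranged. In adult mice this takes place mainly in the bone marrow, whereas the liver of the fetus and the spleen of the young mouse also hold blood-forming tissue.

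The 300 bases around the start of 4 of these genes are shown because these genes moved together in the results that follow. They are RefSeq sequences of the GRCm38.p6 build, from 250 bases before to 50 bases after the start, and all 9 genes matched the RefSeq table. Capitals mark matches to 4 motifs searched on both strands: CCCNNGGG (early B cell factor), CAGGTG (a first E box, bound by E proteins), CAGCTG (a second E box) and TGGGAA (the Ikaros core). No marked match overlaps another.
Igll1 (chr16:16863936-16864235, minus strand): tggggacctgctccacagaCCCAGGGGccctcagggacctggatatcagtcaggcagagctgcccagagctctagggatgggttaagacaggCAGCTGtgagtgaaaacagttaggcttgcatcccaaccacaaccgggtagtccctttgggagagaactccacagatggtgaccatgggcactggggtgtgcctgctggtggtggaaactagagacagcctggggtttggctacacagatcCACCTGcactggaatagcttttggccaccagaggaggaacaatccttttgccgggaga
Vpreb1 (chr16:16869206-16869505, minus strand): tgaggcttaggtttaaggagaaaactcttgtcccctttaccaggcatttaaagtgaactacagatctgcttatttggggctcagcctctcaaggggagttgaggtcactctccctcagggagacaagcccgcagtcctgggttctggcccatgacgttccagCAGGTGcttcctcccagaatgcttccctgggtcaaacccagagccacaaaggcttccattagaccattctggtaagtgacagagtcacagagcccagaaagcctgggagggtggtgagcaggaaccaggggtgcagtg
Rag1 (chr2:101649483-101649782, minus strand): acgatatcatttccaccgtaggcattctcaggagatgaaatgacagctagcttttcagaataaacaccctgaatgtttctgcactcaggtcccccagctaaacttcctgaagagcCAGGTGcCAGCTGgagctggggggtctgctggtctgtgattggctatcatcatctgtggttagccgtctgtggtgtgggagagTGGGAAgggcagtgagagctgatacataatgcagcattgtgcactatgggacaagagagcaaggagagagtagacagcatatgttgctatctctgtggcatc
Dntt (chr19:41029025-41029324, plus strand): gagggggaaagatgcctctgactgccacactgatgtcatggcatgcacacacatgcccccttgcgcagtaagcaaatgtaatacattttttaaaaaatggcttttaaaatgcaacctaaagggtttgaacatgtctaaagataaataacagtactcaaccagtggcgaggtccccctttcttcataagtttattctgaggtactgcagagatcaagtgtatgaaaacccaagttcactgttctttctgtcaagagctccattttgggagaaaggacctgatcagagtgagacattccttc
The Igll1 window held the early B cell factor motif and both E boxes, with CAGGTG on the opposite strand. The Vpreb1 window held the E box CAGGTG. The Rag1 window held both E boxes and the Ikaros core. None of the 4 motifs was found in these windows of Dntt, Rag2, Vpreb3 and Cd34, whereas the Sox4 window and 3 of the Lef1 windows held at least 1. Matches are common, since 13.7% of the 32851 promoter windows of the same length held the early B cell factor motif, 20.2% the first E box, 16.3% the second E box and 25.6% the Ikaros core. Igll1 and Vpreb1 are neighbours on chromosome 16, as are Rag1 and Rag2 on chromosome 2, with 0 annotated genes between them in each case.

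Signals are MAS 5.0 intensities on a linear scale, and differences were tested as log2(signal + 10). The median signal ranged from 84.8 to 125.6 on the 430A arrays and from 125.8 to 169.3 on the 430B arrays. RNA degradation raises the 3'/5' ratio of Gapdh signals, which lay between 0.744 and 3.997. Its highest value at each age was in a NON mouse (3.153 at 4 weeks and 3.997 at 2 weeks), while the group medians lay between 0.794 and 1.277. NOD replicate 3 of 4 weeks had a median correlation of 0.739 with the other mice of its group, against 0.824 to 0.876 in the other 29 mice within theirs. Results that change without it are given with and without it.

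To find out whether expression of the precursor genes changed between the ages, the 4 week mice of all 3 strains were compared with the 2 week mice. Most of these genes were expressed at a lower level at 4 weeks. Averaged over the strains, 10 of the 21 probe sets fell and 1 rose (limma, adjusted p under 0.05), against 3.19% of all 38293 probe sets called (1.88% lower and 1.31% higher). Of the 9 genes, each taken by its main probe set (the one with the highest mean signal), 7 fell and Lef1 did not pass the test. Among the 7, the log2 difference was -3.11 to -2.09 for Igll1, Vpreb1, Rag1 and Dntt. It was smaller, -1.05 to -0.60, for Vpreb3, Sox4 and Cd34. The other gene, Rag2, is among the 10 probe sets but is not counted as a fall of a gene, because it passed the filter on low signals only through mice of 2 weeks. In bulk leukocytes, fewer cells of a type and less RNA per cell cannot be told apart.

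**Figure D1:**
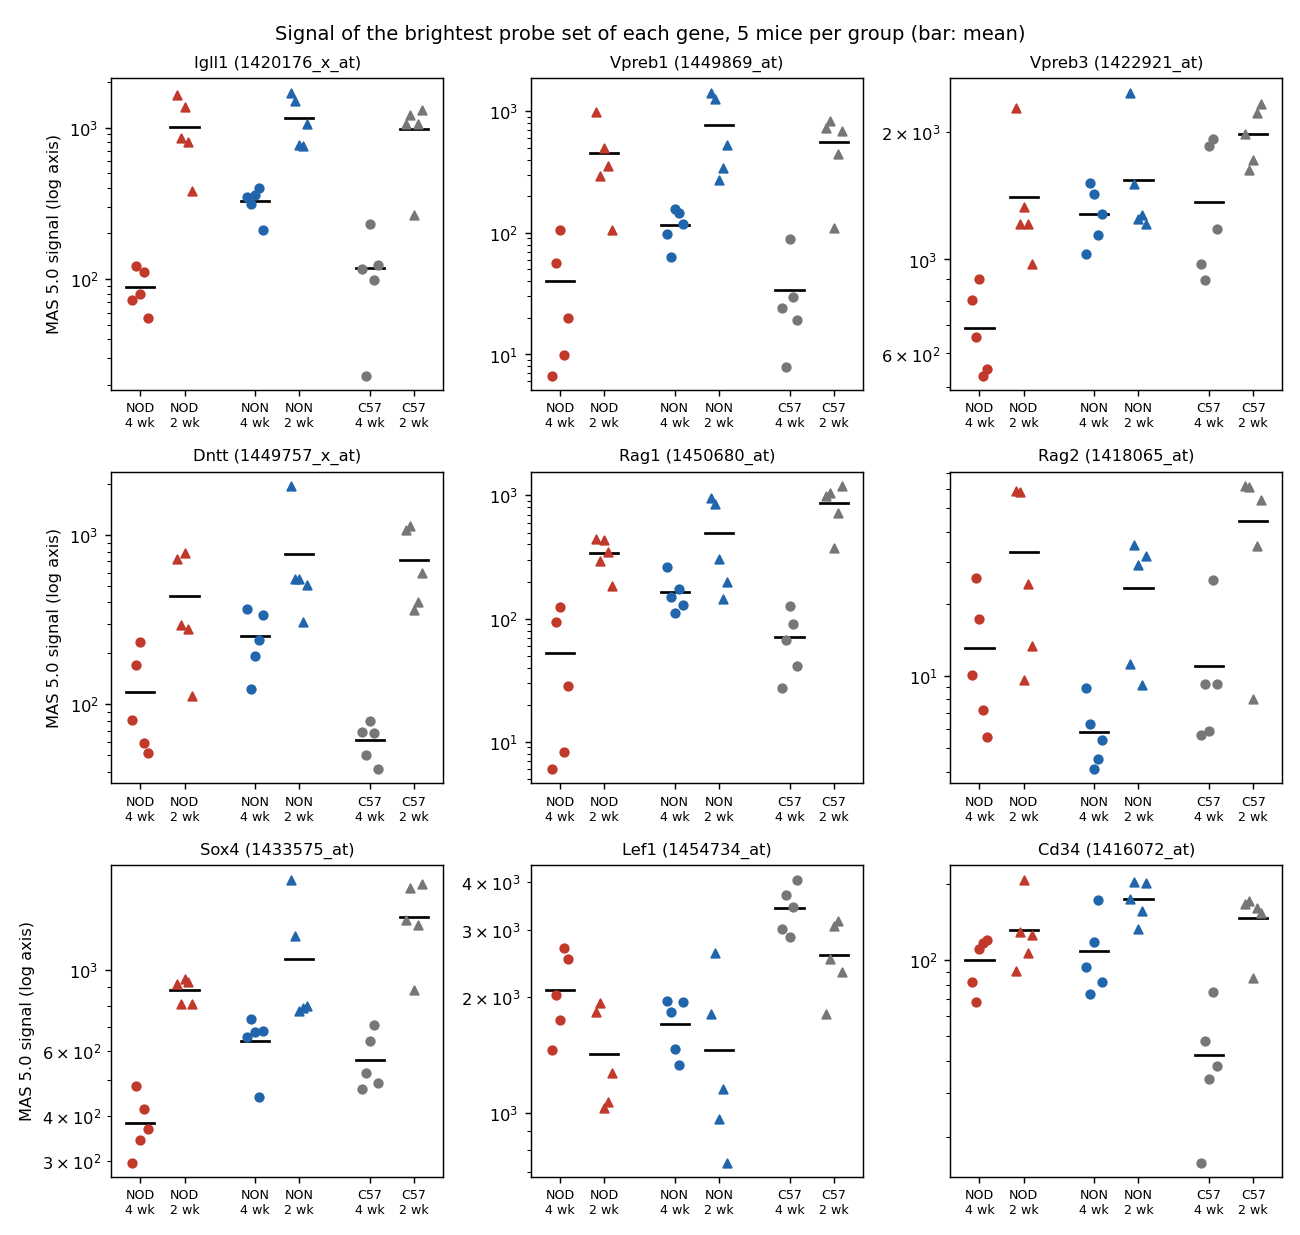
MAS 5.0 signal (log axis) of the main probe set of each of the 9 genes. Each point is 1 of 5 mice (circles, 4 weeks; triangles, 2 weeks) and each bar is a group mean, and the Sox4 signals of the 15 mice of 4 weeks, 297.5 to 737.9, all lie below those of the 15 mice of 2 weeks, 773.6 to 1773.

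Igll1 encodes lambda5, the constant part of the surrogate light chain. In NOD mice its signal on 1420176_x_at was 72.5, 121.6, 79.9, 111.2 and 55.3 at 4 weeks, against 1633, 853.9, 1375, 807.3 and 378.8 at 2 weeks. In NON mice it was 346.4, 313.6, 357.9, 397.3 and 209.1 at 4 weeks, against 1700, 1490, 764.4, 754.9 and 1057 at 2 weeks. In C57 mice it was 117.2, 23, 232, 98.9 and 124 at 4 weeks, against 1058, 1217, 263, 1056 and 1314 at 2 weeks. The ages did not overlap in any of the strains, and the 4 week NON mice were the highest at that age, 4 of the 5 above every NOD and C57 mouse. The mean was 88.1 ± 27.6 at 4 weeks and 1010 ± 496 at 2 weeks in NOD (SD, n = 5 each), an 11.5-fold lower signal, and it was 3.55-fold lower at 4 weeks in NON and 8.25-fold lower in C57. The log2 difference over the strains was -2.67 (standard error 0.26, limma adjusted p = 4.9e-07), and within the strains it was -3.26 in NOD (adjusted p = 0.00073), -1.75 in NON (0.043) and -3.01 in C57 (0.0015). The NON call lay close to the threshold and was kept in 12 of the 30 fits that left out 1 mouse (adjusted p up to 0.12). It was lost without any 1 of the 10 NON mice, of NOD replicates 1 and 4 of 4 weeks or 2 and 4 of 2 weeks, or of C57 replicates 4 and 5 of 4 weeks or 1 and 4 of 2 weeks. The probe set 1420176_x_at is of the _x_at class, which can bind related transcripts. The other Igll1 probe set, 1420177_at, did not follow it. Its group means lay between 31.3 and 82.1, close to the limit of the filter at 50, with a log2 age difference of 0.27 (adjusted p = 0.79).

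Vpreb1 encodes the variable part of the surrogate light chain. Its signal in NOD mice on 1449869_at was 6.7, 56.3, 106.5, 9.9 and 20.1 at 4 weeks, against 994.2, 292.3, 498.5, 356.5 and 106.2 at 2 weeks. In NON mice it was 98.2, 63.1, 157, 145.4 and 117.5 at 4 weeks, against 1424, 1262, 274.4, 341.9 and 530.1 at 2 weeks. In C57 mice it was 23.9, 7.9, 88.4, 29.5 and 19.1 at 4 weeks, against 723.7, 829.1, 109.4, 441.4 and 683.8 at 2 weeks. The ages were separate in NON and C57 and met in NOD, where replicate 3 of 4 weeks was just above replicate 5 of 2 weeks. Of the 15 mice of 4 weeks, 7 had a signal under 50, against 0 of the 15 mice of 2 weeks. The mean was 39.9 ± 42.1 at 4 weeks and 449.5 ± 336 at 2 weeks in NOD and 33.8 ± 31.6 and 557.5 ± 288 in C57 (SD, n = 5 each), and no fold is given for these strains because their 4 week means lie near background. In NON the mean was 6.59-fold lower at 4 weeks. The log2 difference over the strains was -3.11 (standard error 0.35, limma adjusted p = 4.2e-06). The change passed in NOD (-3.28, adjusted p = 0.024), NON (-2.38, 0.045) and C57 (-3.67, 0.003). The NOD call was lost without replicates 1 or 4 of 4 weeks or 1, 3 or 4 of 2 weeks (adjusted p up to 0.087). The NON call was kept in 11 of the 30 fits that left out 1 mouse (adjusted p up to 0.12). It was lost without any 1 of the NON mice except replicate 3 of 2 weeks, of NOD replicates 5 of 4 weeks or 2, 3 and 4 of 2 weeks, or of C57 replicates 1, 4 and 5 of either age. The probe set shared with Vpreb2 also fell by 2.07 on the log2 scale over the strains (adjusted p = 1.4e-05).

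Vpreb3 encodes a related protein that associates with heavy chains in precursor B cells. Its signal in NOD mice was 804.4, 655.2, 898.2, 531.8 and 550.2 at 4 weeks, against 2283, 1216, 1332, 1214 and 976.4 at 2 weeks, and these did not overlap. In NON mice the means were 1280 ± 199.9 at 4 weeks and 1544 ± 535 at 2 weeks, and in C57 mice 1366 ± 490 and 1974 ± 304 (SD, n = 5), with overlap in both strains. It fell by 0.60 on the log2 scale over the strains (standard error 0.14, limma adjusted p = 0.014), a smaller log2 difference than those of Igll1 and Vpreb1, and it did not pass within any single strain (adjusted p of 0.12 for NOD, 0.77 for NON and 0.62 for C57).

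Rag1 encodes the catalytic subunit of the recombinase. Its signal in NOD mice was 6, 94.4, 123.7, 8.2 and 28.3 at 4 weeks, against 446.8, 296.2, 435.3, 347.7 and 184.9 at 2 weeks. In NON mice it was 263.1, 149.4, 111.5, 172.4 and 127.8 at 4 weeks, against 959.3, 855.7, 304.4, 144.3 and 196.7 at 2 weeks. In C57 mice it was 27.5, 67.5, 125.6, 90.8 and 41.5 at 4 weeks, against 994.8, 1043, 376.4, 716.8 and 1192 at 2 weeks. The ages were separate in NOD and C57, whereas in NON 3 of the 2 week mice lay near the 4 week mice and the other 2 were at 959.3 and 855.7. The mean was 6.57-fold lower at 4 weeks in NOD, 2.99-fold lower in NON and 12.2-fold lower in C57. Of the 15 mice of 4 weeks, 5 had a signal under 50, all of them NOD or C57, so that the folds of these strains are uncertain. Over the strains the log2 difference was -2.54 (standard error 0.31, limma adjusted p = 1.2e-05), and it passed in NOD (-2.95, adjusted p = 0.021) and C57 (-3.48, 0.0022) but not in NON (-1.20, 0.34). The NOD call was lost without replicates 1 or 4 of 4 weeks or 1, 3 or 4 of 2 weeks (adjusted p up to 0.087).

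Rag2, the other subunit of the recombinase, was near background. All 15 mice of 4 weeks were under 50, with a range of 4.1 to 25.6, and 10 of the 15 mice of 2 weeks were, with a range of 8 to 62. Its only probe set passed the filter through 5 mice of 2 weeks, so that a lower level at 4 weeks was built into its passing. No difference or fold is therefore given for it.

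Dntt encodes terminal transferase. Its signal in NOD mice on 1449757_x_at was 80.7, 170.4, 233.9, 59 and 51.3 at 4 weeks, against 721.5, 294.4, 786.6, 277.4 and 111.6 at 2 weeks. In NON mice it was 367.2, 123.9, 194.2, 241 and 339.5 at 4 weeks, against 1952, 550.5, 549.2, 305.6 and 507.3 at 2 weeks. In C57 mice it was 68.2, 50, 80, 67.4 and 41.4 at 4 weeks, against 1068, 1126, 358.9, 400.2 and 593.9 at 2 weeks. The ages were far apart in C57 and overlapped in NOD and NON. The mean was 3.68-fold lower at 4 weeks in NOD, 3.05-fold lower in NON and 11.6-fold lower in C57. Over the strains Dntt fell by 2.09 on the log2 scale (standard error 0.29, limma adjusted p = 5e-05), and within strains the change passed in C57 (-3.20, adjusted p = 0.0022), with -1.70 in NOD (0.23) and -1.36 in NON (0.19). The probe set 1449757_x_at, too, can bind related transcripts. A second probe set, 1450545_a_at, fell by 1.18 (adjusted p = 7.6e-05), and the third, 1420166_at, was at -1.01 (adjusted p = 0.051).

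Sox4 encodes a transcription factor of the HMG box family that early B cell development needs. Its signal in NOD mice on 1433575_at was 297.5, 482.7, 343.1, 417.5 and 368.3 at 4 weeks, against 918.6, 809.4, 945.6, 927 and 807.5 at 2 weeks. In NON mice it was 656.3, 737.9, 679.7, 449.5 and 680.8 at 4 weeks, against 1773, 1245, 773.6, 786.5 and 798 at 2 weeks. In C57 mice it was 474, 524.4, 641.1, 707.2 and 492.7 at 4 weeks, against 1373, 1681, 881.2, 1329 and 1727 at 2 weeks. All 15 mice of 4 weeks were below all 15 mice of 2 weeks. Sox4 fell by 1.05 on the log2 scale over the strains (standard error 0.13, limma adjusted p = 8.9e-06), and the change passed in NOD (-1.20, adjusted p = 0.02) and C57 (-1.26, 0.0039), with -0.67 in NON (0.13). The NOD call was lost without replicate 3 of 4 weeks (-1.17, adjusted p = 0.051), and likewise without replicate 1 of 4 weeks or replicates 1, 3 or 4 of 2 weeks (adjusted p up to 0.076). The other 7 Sox4 probe sets did not move as one. Their log2 differences over the strains ranged from -1.05 to 0.93, and only 1443778_at passed, in the opposite direction (0.93, standard error 0.24, adjusted p = 0.026), with means of 194.5 ± 41.6 at 4 weeks and 69.3 ± 57.8 at 2 weeks in C57. Below 0 without passing were 1419155_a_at (-1.05, limma adjusted p = 0.06), 1419156_at (-0.98, 0.058), 1419157_at (-0.70, 0.24) and 1449370_at (-0.61, 0.17). The remaining probe sets, 1455867_at (0.24, 0.73) and 1458332_x_at (0.21, 0.86), were above 0.

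Cd34 encodes a surface sialomucin of blood-forming progenitors that endothelial cells carry too. Its signal in C57 mice was 15.9, 47.9, 34.1, 74.9 and 38.3 at 4 weeks, against 165.7, 170.2, 84.9, 159.6 and 153.6 at 2 weeks. All 4 week C57 mice were thus below all 2 week C57 mice, although replicate 3 of 2 weeks was close. Only 4 mice of 4 weeks had a signal under 50, all of them C57, so that the C57 level at this age lies near background. The means were 99.7 ± 23.1 at 4 weeks and 131.7 ± 45.2 at 2 weeks in NOD, and 108 ± 39.9 and 173.2 ± 30.1 in NON (SD, n = 5), with overlap in both. Cd34 fell by 0.89 on the log2 scale over the strains (standard error 0.16, limma adjusted p = 0.00074) and fell by 1.65 in C57 (adjusted p = 0.0027), with -0.35 in NOD (0.77) and -0.68 in NON (0.25).

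Lef1 encodes an HMG box partner of beta-catenin, which precursor B cells and T cells both express. Its signal in NOD mice on 1454734_at was 1455, 2031, 1742, 2685 and 2512 at 4 weeks, against 1833, 1939, 1030, 1070 and 1268 at 2 weeks. In NON mice it was 1952, 1831, 1463, 1337 and 1945 at 4 weeks, against 1805, 2615, 962.7, 1157 and 742.5 at 2 weeks. In C57 mice it was 3023, 3701, 2866, 3437 and 4057 at 4 weeks, against 1812, 2526, 3074, 3155 and 2331 at 2 weeks. The ages overlapped in all 3 strains, and the 4 week C57 mice were the highest at their age. The log2 difference with age was 0.45 over the strains (standard error 0.15, limma adjusted p = 0.14). It passed with quantile normalization (0.54, adjusted p = 0.03) and without NON replicate 2 of 2 weeks (0.53, adjusted p = 0.03). The second Lef1 probe set was at 0.34 (adjusted p = 0.48).

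**Figure D2:**
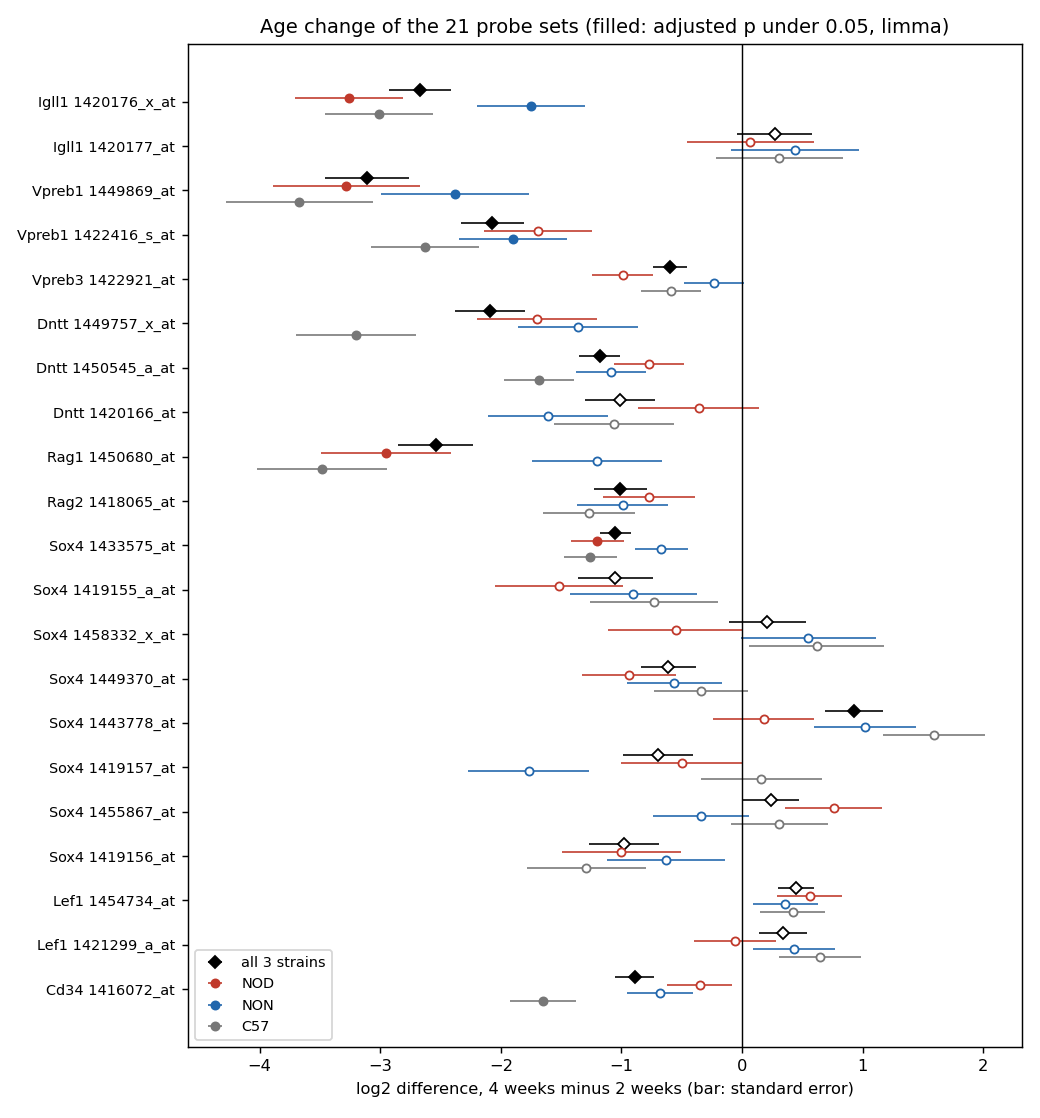
Log2 difference, 4 weeks minus 2 weeks, of the 21 probe sets over the 3 strains (diamonds) and in NOD, NON and C57 mice (circles), with standard errors. Filled symbols passed an adjusted p of 0.05 in limma: 11 over the strains, Rag2 among them, 4 in NOD, 3 in NON and 8 in C57.

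Within single strains, 4 of the 21 probe sets fell in NOD (0.104% of all probe sets), 3 in NON (0.65%) and 8 in C57 (0.402%). Igll1 and Vpreb1 were called in each strain, in NON only in a minority of the fits that left out 1 mouse, and Rag1 and Sox4 in NOD and C57. Dntt and Cd34 were called in C57 alone. All 5 mice of 4 weeks were below all 5 mice of 2 weeks on 6 of the 21 probe sets in NOD (0.948% of all probe sets did so), on 6 in NON (1.83%) and on 8 in C57 (1.28%). The 6 in NON include Rag2, which passed the filter only through mice of 2 weeks. The 6 in NOD include Sox4 1419156_at, on which all NOD mice of 4 weeks were under 50 (11.8 to 49.1). Both leaned on mice of 2 weeks to pass, so that these NOD and NON counts are not free of the filter. The per-strain counts of calls depend on the sharing of 1 spread estimate by the 6 groups: fits on the 10 mice of each strain alone called 1 in NOD, 0 in NON and 2 in C57. Leaving out 1 mouse left 1 call in NOD without replicates 1, 3 or 4 of 2 weeks or replicate 1 of 4 weeks, and 0 calls in NON without replicates 1 or 5 of 2 weeks or replicates 2 or 5 of 4 weeks.

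To test whether the age changes differed between the strains, the strain-by-age interaction was fitted. None of the 21 probe sets passed (limma adjusted p of the 9 main probe sets 0.63 to 0.98). Of all 38293 probe sets, 1 passed (0.00261%), and 2642 had an unadjusted p under 0.05. The estimates had wide errors. The age change of Rag1 in NON was 2.29 (log2) above that in C57 (standard error 0.77, adjusted p = 0.68), that of Dntt was 1.85 above (0.70, adjusted p = 0.68), and that of Igll1 in NOD was 1.51 below that in NON (0.63, adjusted p = 0.54). The calls in some strains and not in others therefore do not show that the changes differed.

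To find out whether the strains differed at the same age, they were compared by the moderated F-test of limma. At 2 weeks, 0 of the 21 probe sets passed (1.66% of all probe sets were called). The adjusted p of the 9 main probe sets ran from 0.23 for Lef1 to 0.9 for Igll1. At so low a share, 0 calls do not show that the strains were alike in these genes. NOD mice averaged 342.2 ± 107.8 for Rag1 at this age, NON mice 492.1 ± 385 and C57 mice 864.5 ± 322 (adjusted p = 0.33), and its ranges overlapped.

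At 4 weeks, 1 of the 21 probe sets differed between the strains (1.51% of all probe sets were called). This was Lef1 (limma adjusted p = 0.044), for which NOD mice averaged 2085 ± 514, NON mice 1706 ± 286 and C57 mice 3417 ± 487 (SD, n = 5 each). No NOD or NON mouse reached the lowest C57 mouse. The log2 difference was -1.0 between NON and C57 (standard error 0.21, adjusted p = 0.033), -0.73 between NOD and C57 (0.21, adjusted p = 0.12) and 0.27 between NOD and NON (0.21, adjusted p = 0.69). The Lef1 call lies close to the threshold. It was lost without any 1 of the 5 NON mice, of the 5 C57 mice or of NOD replicates 2 and 5, with an adjusted p of 0.054 to 0.13. The summed signal of the T cell markers, 10 of 11 measured, was 8033 to 10626 in NOD at this age. It was 5670 to 6965 in NON and 9882 to 13849 in C57. This sum separated NOD from NON mice, whereas their Lef1 ranges overlapped. The part of the T cell markers in the Lef1 difference was not tested.

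The other precursor genes had means at 4 weeks that were spread between the strains without passing the F-test. For Igll1, NOD mice averaged 88.1 ± 27.6, NON mice 324.9 ± 71.3 and C57 mice 119 ± 74.9 (limma adjusted p = 0.058), and all NOD mice were below all NON mice. For Dntt, NOD mice averaged 119.1 ± 79.8, NON mice 253.2 ± 101 and C57 mice 61.4 ± 15.5 (adjusted p = 0.061). The difference of Dntt between NON and C57 taken alone passed (log2 1.81, standard error 0.39, limma adjusted p = 0.041), with every NON mouse above every C57 mouse. Dntt and Lef1 were the 2 of 21 probe sets called in that contrast, against 0.794% of all probe sets. The F-test of Dntt passed without NOD replicate 3 (adjusted p = 0.024) or NON replicate 2 (0.044), and that of Igll1 without C57 replicate 2 (0.011) or 3 (0.029). Mean Cd34 signals were 99.7 for NOD, 108 for NON and 42.2 for C57 (adjusted p = 0.078, and 0.041 without C57 replicate 4). Mean Vpreb3 signals were 688 for NOD, 1280 for NON and 1366 for C57 (adjusted p = 0.1).

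To see whether mice that were high in one gene were high in another, deviations from the group means of log2(signal + 10) were correlated over the 30 mice for the 36 pairs of main probe sets (two-sided permutation test that shuffles mice within groups, 100000 resamples, Benjamini-Hochberg over the 36 pairs). A total of 16 pairs passed by Pearson's r, all positive, and 10 by Spearman's rho. The share of pairs of other probe sets that would pass was not tested, so these counts do not show a trait particular to these genes. Vpreb1 and Rag1 had r = 0.79 and rho = 0.8 (permutation, adjusted p = 0.00036 for both), Vpreb1 and Dntt r = 0.77 and rho = 0.79 (0.00036 for both), Igll1 and Vpreb1 r = 0.77 and rho = 0.72 (0.00048 and 0.0013), and Dntt and Rag1 r = 0.7 and rho = 0.73 (0.00054 and 0.00036). Without the 2 mice farthest from the median of the first gene, r was 0.75, 0.74, 0.73 and 0.65 for these 4 pairs. Igll1, Vpreb1, Dntt and Rag1 thus varied together among mice of the same strain and age. Rag2, near background, passed with Rag1 alone and by Pearson's r only (r = 0.43 and rho = 0.44, permutation, adjusted p = 0.049 and 0.069). Over the 6 pairs of Igll1, Vpreb1, Dntt and Rag1, r lay between 0.46 and 0.79. By Pearson's r, Sox4 correlated with each of these 4 as well, from 0.48 with Dntt to 0.64 with Rag1. Vpreb3 did so too, from 0.49 with Dntt to 0.61 with Vpreb1, and it correlated with Sox4 (0.5). By Spearman's rho, Sox4 did not pass with Dntt, and Vpreb3 passed with Vpreb1 alone. No pair with Lef1 or Cd34 passed. Each gene's signals come from the same arrays, and all of these genes but Lef1 were read on 430A.

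**Figure D3:**
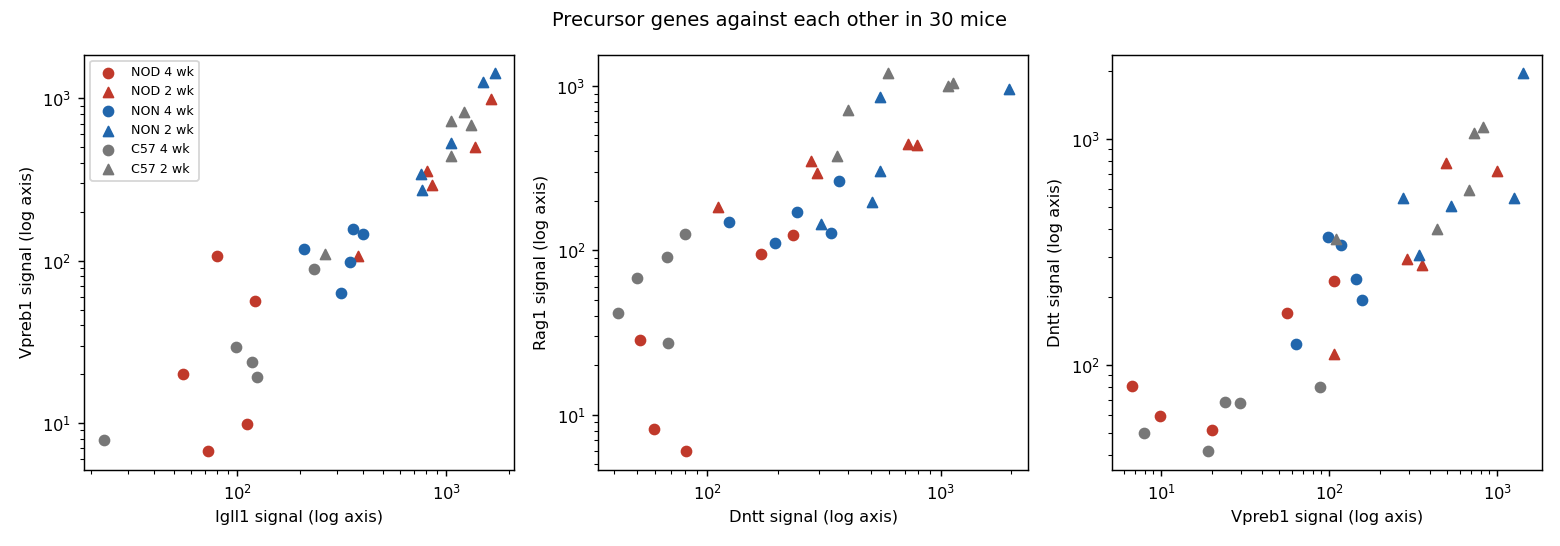
Signals (log axes) of 3 pairs of genes in the 30 mice, Vpreb1 against Igll1, Rag1 against Dntt, and Dntt against Vpreb1. Each point is a mouse (circles, 4 weeks; triangles, 2 weeks), and within groups r was 0.77, 0.7 and 0.77.

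Single mice stood out across several of these genes. C57 replicate 3 of 2 weeks was the lowest of its group in 7 of the 9 genes, among them Igll1 at 263 (1056 to 1314 in the other 4 mice), Vpreb1 at 109.4 (441.4 to 829.1) and Cd34 at 84.9 (153.6 to 170.2). Its summed signal of the mitosis genes was 4900, against 7890 to 9669 in the other 4 mice, that of the myeloid precursor genes 4132, against 6519 to 9726, and that of the T cell genes 11446, against 5790 to 8325. NOD replicate 5 of 2 weeks was the lowest of its group in 6 of the 9 genes, and NON replicate 1 of 2 weeks the highest in 6. The age changes of Igll1, Vpreb1, Dntt, Rag1, Sox4 and Cd34 over the strains passed without each of the 30 mice in turn, and that of Vpreb3 too.

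Genes of the same pathways and of other cell types were counted on lists for the age change over the strains, where the median log2 difference of all probe sets was 0.01. Of 18 genes that work beside the members in precursor B cells, 5 fell and 0 rose, with a list median of -0.25. The 5 were Erg (log2 -2.03, limma adjusted p = 0.00014), a transcription factor of blood progenitors, Myb (-1.18, 2.2e-05), a transcription factor of dividing precursors, Bst1 (-1.10, 0.0077) and Enpep (-0.55, 0.035), surface enzymes of precursor B cells, and Cd93 (-0.70, 0.0067), a marker of immature B cells. Other genes of this list were not called, among them the regulators Ebf1 (-0.16, adjusted p = 0.66) and Pax5 (-0.19, 0.73). The receptor genes Il7r (0.15, 0.8), Kit (-0.25, 0.39) and Flt3 (0.36, 0.53) were not called either. Of the 10 measured genes that join the cut ends or bend DNA for the recombinase, 2 of 12 listed genes not being analysed here, 2 fell: Xrcc6 (-0.65, 0.00026), which encodes Ku70, and Hmgb2 (-0.81, 0.00078). The ligase gene Lig4 was at -0.51 (0.28) and the kinase gene Prkdc at 0.01 (0.99), and the list median was -0.02.

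**Figure D4:**
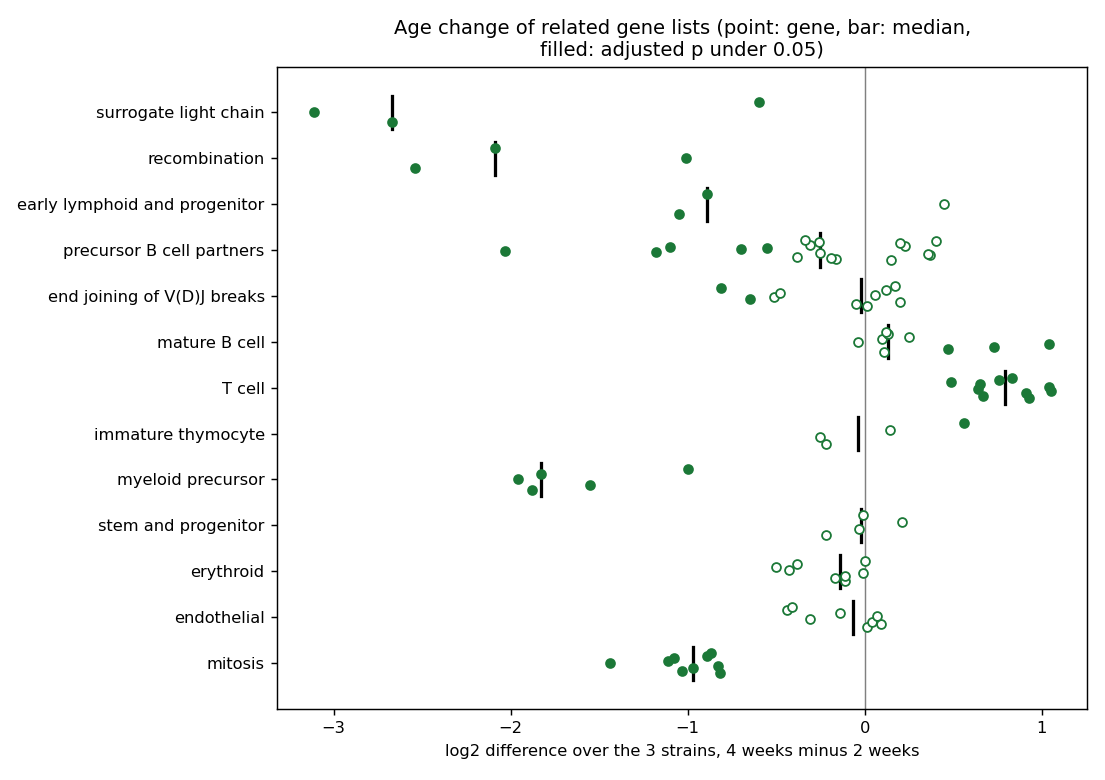
Log2 difference over the 3 strains, 4 weeks minus 2 weeks, of the genes of 13 lists. Each point is a gene (filled, adjusted p under 0.05 in limma) and each bar a list median, which is -2.67 for the surrogate light chain, -1.83 for myeloid precursors, -0.97 for mitosis and 0.8 for T cells.

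Some of the other lists changed with age as well. All 5 myeloid precursor genes fell, with a median of -1.83, and their summed signal was 1276 to 3169 at 4 weeks and 3667 to 9464 at 2 weeks in NOD, 3544 to 4896 and 7264 to 17151 in NON, and 869 to 1665 and 4132 to 9726 in C57. Mpo, the peroxidase of granulocyte precursors, was at -1.88 (limma adjusted p = 1e-06) and Ctsg, a granule protease, at -1.83 (7.7e-06). All 9 measured genes of mitosis fell, with a median of -0.97, among them Top2a (-1.03, 3.7e-05) and Cdk1 (-1.44, 0.00024). All 10 measured T cell genes rose, with a median of 0.8, among them Cd3g (0.91, 0.00059) and Cd8b1 (1.04, 0.0017). Of 9 measured mature B cell genes, 3 rose, Cr2 (1.04, 1.4e-05), Fcer2a (0.73, 0.0014) and Cd22 (0.47, 0.029), and 0 fell, while Cd79a was at -0.04 (0.96). Of 4 measured immature thymocyte genes 1 rose, Themis (0.56, 0.00072), which peripheral T cells express too, and Ptcra, the surrogate alpha chain of thymocytes, was at -0.22 (0.83). None of 4 stem and progenitor genes, 8 erythroid genes and 8 endothelial genes was called, among them Gata2 (-0.22, 0.29), Klf1 (-0.17, 0.87) and Cdh5 (0.09, 0.9). The part of other cell types and of cell division in the changes of the 9 genes was not tested.

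The genes whose pattern over the 30 mice was most like that of each member, by Pearson's r of log2(signal + 10), are given as a description, since the points share the ages, strains and arrays. Igf2bp3, an RNA-binding protein of fetal cells, was the closest to Vpreb1 (r = 0.906) and Igll1 (0.892) and among the 3 closest to Rag1 (0.877) and Sox4 (0.861). It fell by 1.21 with age (limma adjusted p = 1.1e-06). Dntt was closest to Ctsg (0.909), followed by Myb (0.888) and Xrcc6 (0.878), genes that were also next to Igf2bp3 among the 3 closest to Vpreb1 (0.887 and 0.883). Akap12, an anchoring protein of kinases, was the closest to Sox4 (0.905) and Rag1 (0.879) and among the 3 closest to Vpreb3 (0.806). Cd34 was closest to the cell division genes Ccnf (0.876), Kif20a (0.862) and Bub1b (0.85). Lef1 was closest to Als2cl (0.876), Ipcef1 (0.873) and Rasal3 (0.853).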

How the data were processed

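RNA of spleen leukocytes from 30 mice was hybridized to 430A and 430B arrays, 60 in all. The deposited values are MAS 5.0 signals, a linear intensity that the authors computed from perfect match and mismatch probes and scaled globally. The methods name another target than the trimmed mean of the deposited arrays, which is 250. The detection calls on which the authors filtered were not used. Control probe sets were left out, and a probe set was kept with a signal of at least 50 in at least 5 of 30 mice (38293 of 45037). Log2(signal + 10), which understates changes of dim probe sets, was tested with limma 3.58.1 in R 4.3.3 and adjusted by Benjamini-Hochberg over all kept probe sets, with a call at 0.05. Strains were compared within each age (15 mice), ages in 1 fit of 6 groups. Fold differences are ratios of mean signals. The main probe set of a gene is the one with the highest mean signal that names 1 gene. Probe sets ending in _x_at or _s_at can bind related transcripts. All members were described. Genes of the lists were named if called or with the largest changes, at most 4 a list, and genes of similar pattern were the 3 with the highest r. The fifth called precursor gene and the uncalled genes of all lists were named after their values were seen. The members and lists were chosen with earlier results of these data known. The test was tried on simulated data. Alternatives changed the pseudocount, filter, scaling, threshold, Gapdh covariate, replicate block, samples fitted and test, and left out each mouse. The number of arrays limits the precision. Gene positions come from RefSeq GRCm38.p6. Figures were drawn with matplotlib.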

Additional observations from a re-analysis of the deposited data

Results flagged for a closer look

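In 12 of the 126 groups of 5 mice formed by the 21 probe sets, the mouse at one end lay far from the other 4 by Dixon's criterion. Chance flags about 1 in 20 groups, or 6.3 here. C57 replicate 3 of 2 weeks was low in Igll1 (263, against 1056 to 1314 in the other 4) and Cd34 (84.9, against 153.6 to 170.2). NON replicate 4 of 4 weeks was low in Sox4 on 1433575_at (449.5, against 656.3 to 737.9) and in Igll1 on 1420177_at (9.2, against 48 to 74.8). C57 replicate 4 of 4 weeks was high in Rag2 (25.1, against 5.7 to 9.3), a level near background.

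The other 7 were in dim Sox4 probe sets. On 1419155_a_at, NOD replicate 4 of 4 weeks was at 99.5 (61.6 to 70.7 in the other 4), NON replicate 3 of 2 weeks at 41.3 (211.6 to 365.2) and C57 replicate 1 of 4 weeks at 31.5 (101.4 to 118.3). On 1443778_at, NOD replicate 1 of 2 weeks was at 53.4 (103.8 to 123.6), NON replicate 3 of 4 weeks at 366.3 (64.1 to 99.5) and NON replicate 2 of 2 weeks at 113.9 (34.9 to 48). On 1419156_at, C57 replicate 5 of 4 weeks was at 29.2 (8.6 to 13).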

How the results depend on the processing

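Of 2477 alternative values of single genes, 2360 kept their side of the threshold, and their direction where the test has one. A further 103 no longer passed, 14 newly passed and 0 reversed. Many of these values were not free to change. The F-tests have no direction. A strain comparison within an age does not use mice of the other age. Leaving out a mouse of another strain cannot reverse the age difference of a strain. The 11 calls over the 3 strains became 8 to 13 under the alternatives run. The count of probe sets differing between strains at 4 weeks, 1 in the report, was 0 with a pseudocount of 1, without a filter, with quantile normalization, at an adjusted p under 0.005, with the replicate block and with the Gapdh ratio as a covariate, 2 with a pseudocount of 32, and 3 with a filter of 100 in 10 mice (which 16 of the 21 probe sets passed) or a fit on all 30 mice. The age count in NON, 3 in the report, was 1 with a pseudocount of 1, without a filter or with the replicate block, and 0 at an adjusted p under 0.005, by the methods' test or with 10 mice fitted. The age count in NOD, 4 in the report, was 1 at an adjusted p under 0.005 or with 10 mice fitted and 0 by the methods' test. The age count in C57, 8 in the report, was 2 with 10 mice fitted and 1 by the methods' test. The cause was not tested, except that fits on 10 mice have fewer samples to estimate the spread.

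Leaving out each mouse gave 0 to 0 calls between strains at 2 weeks, 0 to 2 at 4 weeks, 11 to 13 with age over the strains, 1 to 4 in NOD, 0 to 4 in NON, 8 to 9 in C57 and 0 to 0 for the difference of age changes. Without NOD replicate 3 of 4 weeks, 2 probe sets, Dntt and Lef1, differed between strains at 4 weeks. The age counts without it were 13 over the strains, 3 in NOD, 4 in NON and 8 in C57. In NON, 1 call was left without replicates 1 or 3 of its 4 week mice, NOD replicates 2 or 4 of 2 weeks, or C57 replicates 1 or 4 of 2 weeks or 4 or 5 of 4 weeks. In NOD, 2 calls were left without replicate 4 of 4 weeks.

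Neither the labels nor the data were taken to pair mice by replicate number: of 30 pairs with the same number across groups, 3 had a correlation of deviations over 0.1 (median 0.042, against -0.011 between different numbers). A total of 12 of 30 mice correlated best with their own number, which is a hint from the data and not from the design. With the number as a replicate block, the counts were 0 and 0 between strains at 2 and 4 weeks, 13 with age over the strains, 4 in NOD, 1 in NON, 8 in C57 and 0 for the interaction. Signals under 50, as for Rag2, for Vpreb1 and Rag1 at 4 weeks and for Cd34 in C57 at 4 weeks, lie near background, and their folds depend on a few units.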
